A study of Mus musculus with 6 samples.

Results

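The relaxin family of the testis comprises small peptide hormones built like insulin and the receptors that read them. Among the 55331 genes of the authors' deposited table, 8 were followed here: the ligands Insl3, Insl6, Insl5, Rln3 and Rln1, the receptors Rxfp2 and Rxfp1, and Lhcgr, the receptor for luteinising hormone. The members were chosen by gene name, with the rise of Insl3 in the same table already known, so its change is given as a description and supports nothing further. Polyadenylated RNA came from whole testes of mice aged 35 days and of mixed strain. All 6 libraries carried floxed Ptbp1 alleles (Ptbp1fl/fl); the 3 control libraries had no Cre, and the 3 Ptbp1_cKO libraries also carried Amh-Cre+/-. Amh-Cre is a recombinase driven in Sertoli cells, the somatic cells that nurse the germ cells, and PTBP1 is a regulator of splicing. The labels give no group with Amh-Cre alone, so loss of Ptbp1 and presence of the Cre transgene cannot be told apart. Each group has a single FPKM (fragments scaled to transcript length and library size) and no value per library, so neither a spread nor an overlap of the groups can be read. Ptbp1, the targeted gene, stood at 49.97 FPKM in control and 46.7 in Ptbp1_cKO by the authors' deposited table (log2 fold change -0.10, q = 0.999), so no loss of its transcript was called in whole testis. Many testis cell types express Ptbp1 and the table has no value per exon or cell type, so this level does not check the labels.

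INSL3 is made by Leydig cells, the androgen-producing cells between the seminiferous tubules, and acts through RXFP2, a G protein-coupled receptor that raises cyclic AMP. In the fetus this pair drives the descent of the testis by acting on the gubernaculum, the ligament that guides it, and in the adult INSL3 is used as a readout of Leydig cell number and maturity. LHCGR on the same cells receives luteinising hormone from the pituitary and drives testosterone synthesis. Relaxin, encoded by Rln1, binds RXFP1, relaxin-3 binds RXFP3, and INSL5 binds RXFP4, while INSL6 is a product of germ cells whose receptor is not established.

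Exon 1 of these ligand genes encodes the signal peptide and the B chain, and the bases of Insl3 that no other annotated gene shares lie there too. Its coding part is therefore shown for the most abundant ligands, Insl3 (mm10, chr8:71689258-71689432, plus strand) and Insl6 (mm10, chr19:29325045-29325315, minus strand), read from the GENCODE M21 transcripts, with each in-frame cysteine codon in capitals:
Insl3: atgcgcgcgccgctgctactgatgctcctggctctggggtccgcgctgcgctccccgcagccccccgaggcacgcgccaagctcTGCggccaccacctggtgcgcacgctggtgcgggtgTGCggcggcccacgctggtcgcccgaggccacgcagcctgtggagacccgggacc
Insl6: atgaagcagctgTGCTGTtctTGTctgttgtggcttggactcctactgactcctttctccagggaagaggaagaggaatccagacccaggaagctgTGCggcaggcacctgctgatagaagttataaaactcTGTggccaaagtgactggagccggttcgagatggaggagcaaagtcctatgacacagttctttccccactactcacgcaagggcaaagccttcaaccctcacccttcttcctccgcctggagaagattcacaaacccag

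Insl3 has 2 such codons in this stretch and Insl6 has 5, and in both genes 11 codons separate the last 2. Cysteines of the B chain, such as the last 2 in each stretch, hold the B and A chains of insulin-like peptides together. The earlier ones of Insl6 lie at its start, in the part for the signal peptide. The stretches differ in base composition, with 76.0% G and C in Insl3 and 52.4% in Insl6, and in length, with 175 of 366 coding bases in Insl3 and 271 of 573 in Insl6.

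The upstream windows of Insl3 and Rln3 are shown because these 2 ligand genes hold the same nuclear receptor core and differ widely in level. Both come from RefSeq on GRCm38.p6, the assembly behind mm10, which held windows for 6 of the 8 members; Insl6 and Rxfp1 had none. Capitals mark AAGGTC, the core recognised by nuclear receptors such as NR5A1, and TATAA, the core of a TATA box, on either strand; the motifs were chosen after the windows had been read. The Insl3 stretch (chr8:71689002-71689213, plus strand) stops before the start that GENCODE gives, and the Rln3 stretch (chr8:84044980-84045229, minus strand) stops before the RefSeq start:
Insl3: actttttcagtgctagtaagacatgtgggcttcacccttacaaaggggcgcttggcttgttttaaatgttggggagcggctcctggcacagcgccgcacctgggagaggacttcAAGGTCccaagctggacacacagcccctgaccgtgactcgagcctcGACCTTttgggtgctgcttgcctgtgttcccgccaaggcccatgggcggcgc
Rln3: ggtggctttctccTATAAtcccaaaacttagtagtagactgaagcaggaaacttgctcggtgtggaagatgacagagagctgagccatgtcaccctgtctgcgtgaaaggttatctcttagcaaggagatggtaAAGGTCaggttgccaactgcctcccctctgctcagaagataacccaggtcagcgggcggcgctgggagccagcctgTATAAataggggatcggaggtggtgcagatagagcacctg

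Insl3 holds AAGGTC at -136 on its own strand and at -90 on the opposite strand, counted from the RefSeq start, and Rln3 holds it at -116. Of 32817 windows of 300 bases in the whole RefSeq table, 12.3% held AAGGTC on either strand, against 2 of the 7 windows of the 6 members. TATAA stood at -30 in Insl3, where it overlaps its own reverse complement at -31. That place is past the stretch printed and past the start that GENCODE gives, so it is upstream by RefSeq only. In Rln3 TATAA stood at -237 and at -40. It was present in 24.9% of all windows and in 5 of the members' 7, those of Insl3, Insl5, Rln1 and Rln3. The windows of the receptors Rxfp2 and Lhcgr held neither motif. A match is only a run of letters and shows no binding.

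Insl3 made up most of the summed ligand FPKM, and the other ligands followed far below it. Insl3 (ENSMUSG00000079019.2, chromosome 8, 71689214 to 71690575) stood at 749.6 FPKM in control and 1049 FPKM in Ptbp1_cKO. By mean FPKM it ranked 71 among the 22048 tested genes, within the highest 0.322%. Insl3 held 82.9% of the summed ligand FPKM in control and 88.5% in Ptbp1_cKO. Insl6 (ENSMUSG00000050957.4, chromosome 19, 29321344 to 29325356), the germ cell peptide, followed at 153.8 and 135.0 FPKM and rank 1038, so that the ratio of Insl3 to Insl6 was 4.87 in control and 7.77 in Ptbp1_cKO. Insl5 (chromosome 4, 103017872 to 103026842), best known as a hormone of the colon, was present at 0.812 and 0.660 FPKM. Rln3 (chromosome 8, 84042929 to 84045000), whose product is known from the brainstem, stood at 0.110 and 0.0532 FPKM. Rln1 (chromosome 19, 29331170 to 29334670), the relaxin gene itself, was listed at 0 in control and at 0.00297 FPKM in Ptbp1_cKO.

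**Figure D1:**
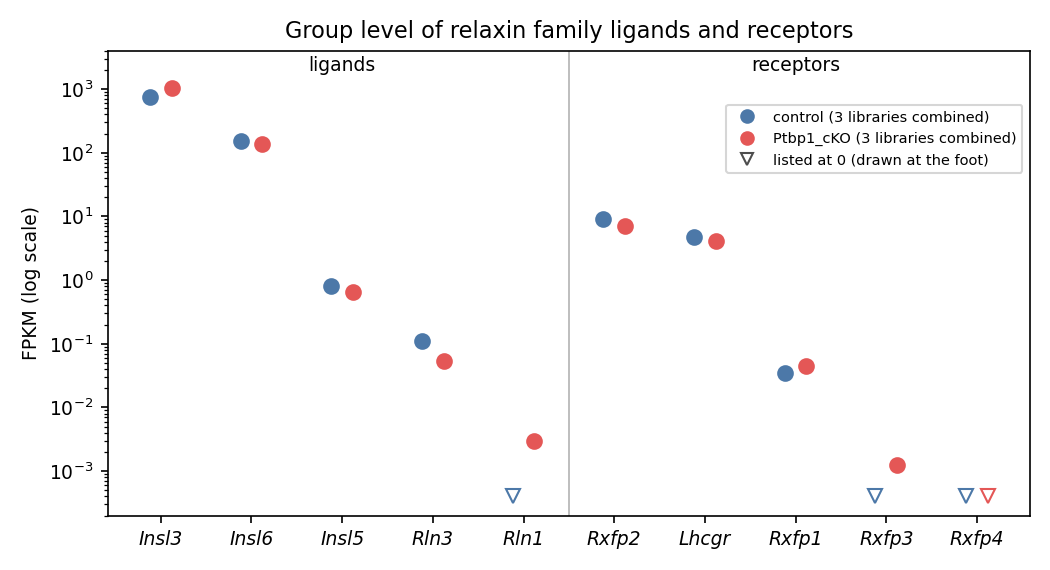
FPKM of each ligand and receptor gene in control (blue) and Ptbp1_cKO (red) on a log scale, 1 combined value per group and no error bar because the table holds none; open triangles mark genes listed at 0. Insl3 stands highest, at 749.6 and 1049 FPKM, and it is the only one of the 5 tested members that is higher in Ptbp1_cKO.

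Receptor transcripts were far less abundant than the main ligand. Rxfp2 (ENSMUSG00000053368.13, chromosome 5, 150018675 to 150082184), the INSL3 receptor, stood at 9.21 FPKM in control and 7.13 in Ptbp1_cKO, and Lhcgr (ENSMUSG00000024107.7, chromosome 17, 88716481 to 88791990) at 4.69 and 4.16 FPKM. Rxfp2 thus exceeded Lhcgr in both groups, by a ratio of 1.97 in control and 1.71 in Ptbp1_cKO, although no spread is at hand to say whether these neighbours in the order differ. Rxfp1 (chromosome 3, 79641611 to 79737880), the relaxin receptor, was at 0.0350 and 0.0447 FPKM and was not tested. Outside the members, Rxfp3, the receptor for relaxin-3, was listed at 0 in control and 0.00125 FPKM in Ptbp1_cKO, and Rxfp4, the receptor for INSL5, was listed at 0 in both groups. Insl5 thus had a value above 0 while its receptor had none in either group.

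Rln1, Rln3 and the receptor Rxfp3 rested on a handful of fragments. Low FPKM values of single-exon genes fell into 3 steps per group, which give the weight of 1 fragment in each library. If each group value is the mean over 3 libraries, the single-exon transcript of Rxfp3 in Ptbp1_cKO corresponded to 1 fragment, and Rln1 in Ptbp1_cKO to 2 fragments on its retained-intron transcript. Rln3 corresponded to 8 to 11 fragments in control and 4 in Ptbp1_cKO, too few to speak of a difference, and Cuffdiff did not test it. Rxfp1, lower than Rln3 in FPKM but with longer transcripts, corresponded to 36 to 47 fragments in control and 45 to 49 in Ptbp1_cKO on its coding transcript, and to 8 to 15 and 10 to 16 on its 2 shortest transcripts. A floor of 3 fragments in 1 library allowed up to 0.0153 FPKM for Rxfp4 in control and 0.0157 FPKM in Ptbp1_cKO, for counting error alone. By the same scale Insl3 rested on 54000 to 70000 fragments in control and 73000 to 81000 in Ptbp1_cKO, and Insl6 on 14000 to 18000 and 12000 to 13000, so counting error is small for both.

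Across the comparison of Ptbp1_cKO with control, Insl3 was higher and the other 4 tested members had lower FPKM without passing the threshold. Of the 8 members, 5 were tested by Cuffdiff and 3 (Rln1, Rln3 and Rxfp1) were not, being too low. At q under 0.05, the authors' deposited table called 1 member higher and 0 lower, where 0.458% of the 22048 tested genes were called higher and 1.16% in either direction. That count was known when the members were chosen, so nothing is read from it. At an unadjusted p under 0.05, 2 members passed (Insl3 and Rxfp2), beside 8.98% of all tested genes.

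The authors' deposited table puts Insl3 at 1.40 times its control FPKM, or 0.48 on the log2 scale, at q = 0.00848. Whole testis mixes many cell types, so more Leydig cells and more Insl3 RNA per cell cannot be told apart. Its p of 5e-05 is the smallest in that table and is shared by 130 genes, so it does not rank Insl3 among them. The call depended on how p was obtained. Its test statistic was 2.76, and the two-sided p from that statistic under a normal distribution was 0.00571, or 0.9999 after Benjamini-Hochberg adjustment; by that rule 0 members and 0.0863% of tested genes passed. Whether a normal distribution holds for the statistic is not known.

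For Rxfp2 the authors' deposited table gives 0.775 times the control FPKM, or -0.37 on the log2 scale (unadjusted p = 0.0121, q = 0.293), which did not pass. Insl6 had a log2 fold change of -0.19 (p = 0.0857, q = 0.674 in the authors' deposited table). For Lhcgr the value was -0.17 (q = 0.999 in the authors' deposited table) and for Insl5 -0.30 (q = 0.999 in the authors' deposited table). Insl3 and the receptors Rxfp2 and Lhcgr thus lay on different sides of 0. The ratio of Insl3 to Rxfp2 in FPKM was 81.4 in control and 147 in Ptbp1_cKO, and that of Insl3 to Lhcgr was 160.0 and 252. Differences between these genes' changes were not tested.

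**Figure D2:**
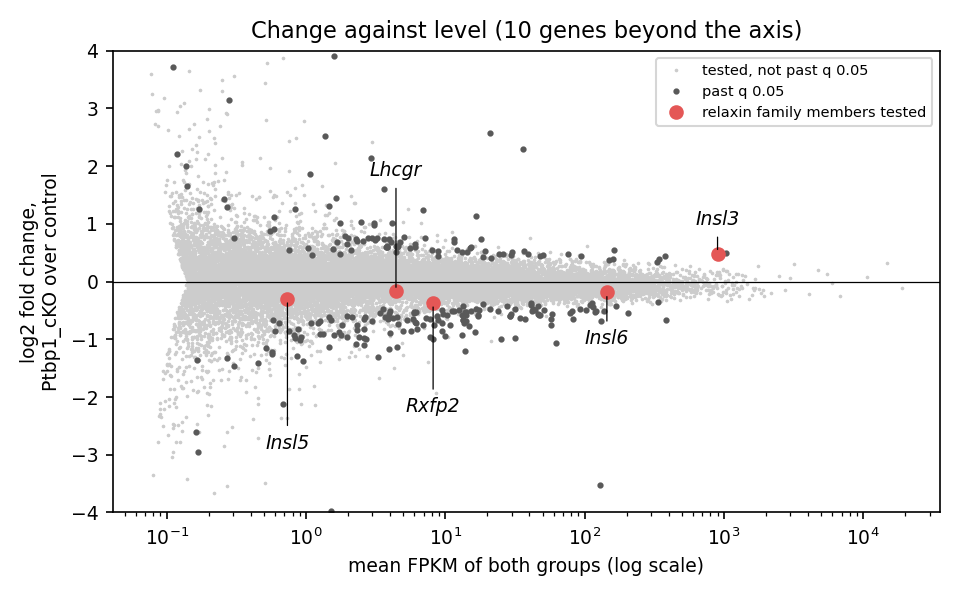
Change in Ptbp1_cKO relative to control (deposited log2 fold change) against the mean FPKM of both groups (log scale) for 22020 tested genes above 0 in both groups, with 10 genes beyond the vertical axis; dark points passed q under 0.05 and red points are the 5 tested members. Insl3 sits at the abundant end at 0.48, while Insl6, Insl5, Rxfp2 and Lhcgr lie below 0 within the grey cloud.

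Few genes as abundant as Insl3 changed as much. Insl3 was chosen with its change known, so this comparison is a description and nothing is read from its place. Among 105 tested genes with a mean FPKM within 1.5 times that of Insl3, itself included, log2 fold changes ran from -0.33 to 0.49 with a median of -0.06, and in the authors' deposited table Insl3 and Clu alone were called. Of the other 1418 tested genes with at least 100 FPKM in both groups, 13 were called, 7 of them higher, and 2 had a larger log2 fold change than Insl3. The 5 genes of that abundance nearest to Insl3 in log2 fold change were Clu (0.49), a chaperone secreted by Sertoli cells, AI507597 (0.44), Gstm1 (0.56), a glutathione transferase, Lelp1 (0.39) and Rexo1 (0.38). Likeness here is nearness of 1 number taken from 2 group values. Their FPKM went from 853.6 to 1199 for Clu, from 320.2 to 434.2 for AI507597 and from 131.4 to 193.1 for Gstm1.

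The position of Insl3 limits how its FPKM can be read. Insl3 lies within the annotated span of Jak3, a cytokine receptor kinase, on the same strand, and the second of its exons is also the last exon of the transcript Jak3-201. Of 623 exonic bases of Insl3, 404 (64.9%) are shared with Jak3 and 219 are its own. The authors' deposited table has Jak3 at 3.31 FPKM in control, 4.33 in Ptbp1_cKO and 0.39 on the log2 scale (q = 0.999). Insl3 stood at 227 times the FPKM of Jak3 in control and 242 times in Ptbp1_cKO, and how Cuffdiff divided the shared fragments is not given in the sources used here. None of the 7 tested neighbours of Insl3 was called, with log2 fold changes from -0.18 to 0.43.

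**Figure D3:**
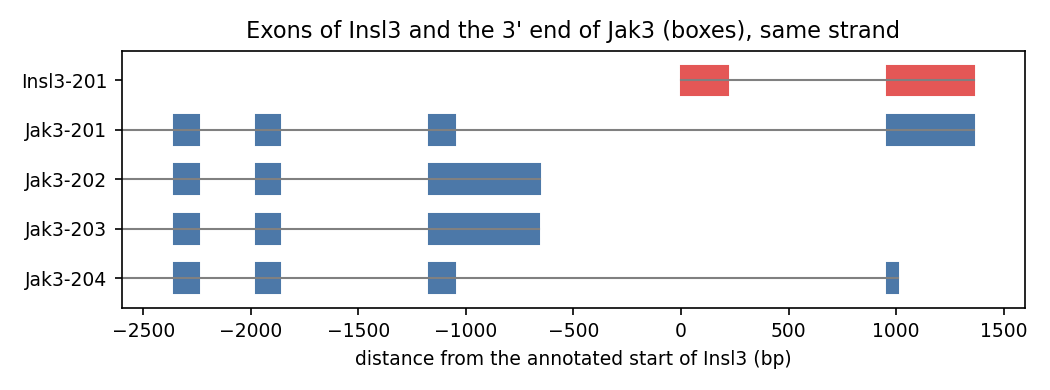
Exons (boxes) of Insl3 (red) and of 4 Jak3 transcripts near this gene (blue), by distance in bp from the annotated start of Insl3; lines are introns. The last exon of Jak3-201 coincides with the last exon of Insl3, 404 of its 623 exonic bases, and no Jak3 exon covers the Insl3 exon of 219 bases.

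The other members shared little exonic sequence. Insl6 and Rln1 lie 5813 bp apart next to Jak2, which ends 8263 bp from Insl6, so a relaxin family gene neighbours a Janus kinase gene at both loci. Jak2 stood at 3.42 and 3.49 FPKM, and none of the 6 tested neighbours of Insl6 was called. Rxfp2 shares 294 of its 5690 exonic bases with Gm42557 on the opposite strand, which the authors' deposited table lists at 0.613 and 0.296 FPKM (q = 0.999). The libraries were stranded, but whether the counting used strand is not given in the sources used here. Lhcgr ends 1328 bp from the end of Gtf2a1l, a germ cell transcription factor gene at 218.5 and 203.3 FPKM, without sharing exonic bases with it. None of the 7 tested neighbours of Rxfp2 or the 6 of Lhcgr was called.

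Transcription factors known to act on the Insl3 promoter had higher FPKM in Ptbp1_cKO without passing the threshold. Of 11 such genes, 0 were called in either direction in the authors' deposited table, 5 had an unadjusted p under 0.05, and all 11 had a higher FPKM. Over all tested genes, 1.16% were called in either direction, 8.98% had an unadjusted p under 0.05 and 11227 of 22048 had a higher FPKM. On the scale of log2(FPKM + 1), subtracting control from Ptbp1_cKO gave a median of 0.18 over this list and 0.004 over all tested genes; list medians below use the same scale. The authors' deposited table lists Nr5a1, the master regulator of steroidogenic cells, at 8.29 and 9.79 FPKM (unadjusted p = 0.0487, q = 0.550). Nr4a1, an immediate early nuclear receptor induced by luteinising hormone and the most abundant of the list, was at 21.4 and 22.2 FPKM, and Nr0b1, a repressor of NR5A1, at 6.55 and 8.24 FPKM. Nr2f2, a marker of Leydig progenitors and stroma, had a q of 0.176 in the authors' deposited table, at 3.08 and 4.26 FPKM. Mef2c, of the MEF2 transcription factors, came nearest to the threshold, with q = 0.0749 in the authors' deposited table at 2.40 and 4.25 FPKM.

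The steroid synthesis genes of the same Leydig cells lay on both sides of 0. Fdxr, the reductase that feeds electrons to the mitochondrial steroid enzymes, rose with q = 0.0324 in the authors' deposited table, from 7.29 to 10.5 FPKM. This was the 1 call among 10 genes, where 1.16% of all tested genes were called in either direction. Hsd3b1 stood at 35.9 and 45.1 FPKM, Hsd3b6, the adult isoform, at 39.6 and 47.7, and Scarb1, a lipoprotein receptor that supplies cholesterol, at 30.5 and 38.7. On the other side, Star, which carries cholesterol into mitochondria, had q = 0.321 in the authors' deposited table, at 85.5 and 63.6 FPKM. Cyp17a1, the most abundant of the list, was at 161.8 and 143.8 FPKM and Cyp11a1 at 47.6 and 44.3. The list's median was 0.06, with 6 genes higher and 4 lower in FPKM. Set against the geometric mean of these genes, which was 36.0 FPKM in control and 37.8 in Ptbp1_cKO, Insl3 was 20.8-fold more abundant in control and 27.8-fold in Ptbp1_cKO. Per transcript of Star the ratio of Insl3 was 8.76 and 16.5, and per transcript of Hsd3b1 it was 20.9 and 23.2.

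**Figure D4:**
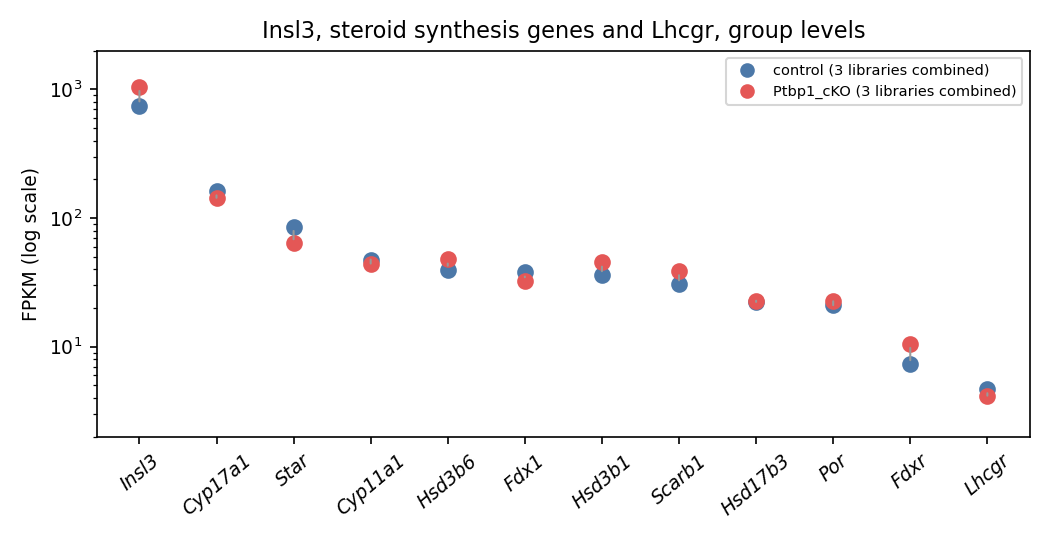
FPKM on a log scale of Insl3, the 10 steroid synthesis genes in order of control level, and Lhcgr, in control (blue) and Ptbp1_cKO (red), 1 combined value per group. Insl3 and Fdxr rose past the deposited threshold, while Star goes from 85.5 to 63.6 and Cyp17a1 from 161.8 to 143.8 without passing it.

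Genes of Leydig maturation and hormone processing gave no calls, where 1.16% of all tested genes were called in either direction. Lists this short hold few calls at that share, so nothing is read from their absence. Of the adult Leydig list, 0 of 8 tested genes were called in the authors' deposited table, all 8 had higher FPKM and the median was 0.16; the most abundant was Ephx1, an epoxide hydrolase, at 46.3 and 54.3 FPKM, and Vcam1, an adhesion molecule, had q = 0.0602 in the authors' deposited table, at 19.9 and 26.0 FPKM. Of the immature or fetal Leydig list, 0 of 6 were called, 3 were higher and 3 lower, and the median was 0.07; Pdgfra, the most abundant, was at 3.15 and 4.03 FPKM. Among 8 genes of prohormone processing, which cleave peptide precursors of this kind, 0 were called and the median was 0.11. Cpe, a carboxypeptidase that trims prohormones and the most abundant of them, had p = 0.00350 unadjusted and q = 0.143 in the authors' deposited table, at 65.3 and 89.6 FPKM. Pcsk4, the germ cell convertase, was at 30.9 and 32.7 FPKM.

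The transduction and endocrine lists were likewise without calls, and beside 1.16% of all tested genes nothing is read from that. Of 12 genes of cyclic AMP transduction, through which RXFP2 and LHCGR signal, 0 were called in the authors' deposited table and the median was 0.03. Gnas, the stimulatory G protein subunit, had q = 0.239 in the authors' deposited table at 72.7 and 89.8 FPKM, and Prkar2a, the most abundant, at 548.7 and 526.4 FPKM. The list of luteinising and follicle-stimulating hormone genes and their axis left out Lhcgr, a member. It also held Prlr and Ghr, the receptors for prolactin and growth hormone. In this mixed list 0 of 4 tested genes were called, with a median of 0.17, and Prlr was highest at 9.08 and 10.02 FPKM. Of the insulin and IGF peptides 0 of 3 tested genes were called, the median was 0.32, and Igf1, the most abundant, stood at 2.87 and 4.08 FPKM, with Ins1 listed at 0 in both groups. Of the 6 tested genes tied to testis descent, which include Rxfp2, 0 were called and the median was 0.13; Ctnnb1 was highest at 43.7 and 41.5 FPKM.

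**Figure D5:**
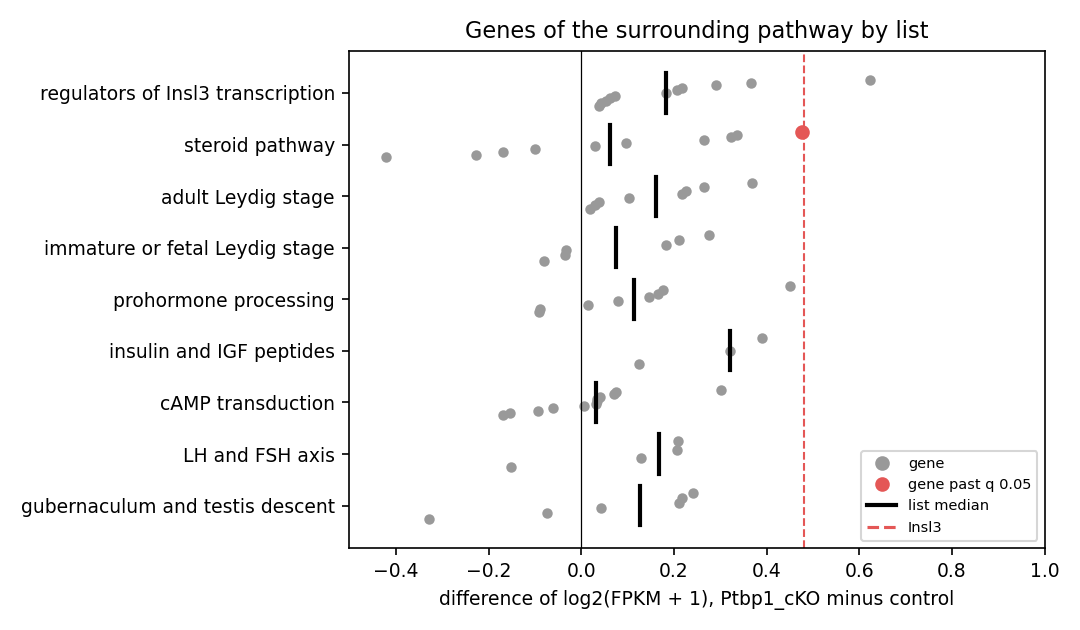
Difference of log2(FPKM + 1), Ptbp1_cKO minus control, for each gene with at least 0.1 FPKM in a group, by list; grey dots are genes, red dots genes past q under 0.05, black bars list medians and the dashed line Insl3 at 0.48. Fdxr of the steroid list is the only red dot, and all 11 regulators of Insl3 lie above 0.

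Markers of Leydig cells, which make Insl3, and of other cell types are set beside the members. Over all tested genes, 1.16% were called in either direction. The 10 Leydig markers, without Insl3 and Lhcgr, were all detected, summed to 478.7 FPKM in control and 452.3 in Ptbp1_cKO, and had 0 calls in the authors' deposited table, 6 higher and 4 lower FPKM and a median of 0.02. Each of them also stands in a list above, most in that of steroid synthesis, so this is not a separate result. Fdxr, called in the steroid list, is not among them. Markers of other somatic cells of the testis mostly had higher FPKM. All 12 Sertoli markers were higher, with Clu called and a median of 0.20, and the summed FPKM was 1169 in control and 1545 in Ptbp1_cKO. All 6 stromal markers were higher, with Col1a1 and Dcn called, a median of 0.30 and sums of 42.4 and 58.0 FPKM. Of 7 macrophage markers 6 were higher, with C1qb and Fcer1g called, a median of 0.41 and sums of 42.5 and 54.3 FPKM. The 6 peritubular myoid markers, with 5 higher, had 0 calls, a median of 0.16 and sums of 188.3 and 213.1 FPKM. The 6 endothelial markers, all higher, had 0 calls, a median of 0.13 and sums of 8.30 and 9.72 FPKM. Of 3 tested epididymis markers, all higher, Crisp1 and Defb28 were called and the median was 0.62, a value that ran from 0.044 to 2.676 over other minimums and pseudocounts. Crisp1, a sperm-coating protein of the epididymis, rose from 0.0482 to 5.90 FPKM, a log2 fold change of 6.94 in the authors' deposited table, and Defb28 rose from a listed 0 to 0.539 FPKM. Most of the control sum came from Defb21, at 4.07 and 4.22 FPKM, so the sums of 4.11 and 10.7 FPKM understate the change of Crisp1; Lcn8 was listed at 0 in both groups.

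Germ cell markers are the background for Insl6 and for Rxfp2, which germ cells also express. Of 8 spermatocyte markers 7 had lower FPKM in Ptbp1_cKO, with a median of -0.11 and a sum of 2911 FPKM in control and 2559 in Ptbp1_cKO. Of 7 round spermatid markers 6 were lower, with a median of -0.08 and sums of 1735 and 1619 FPKM. Of 6 tested elongating spermatid markers 5 were higher, with a median of 0.16 and sums of 46403 and 49133 FPKM, and Prm2 was listed at 0 in both groups with too much data to be estimated. None of these 3 lists had a call in the authors' deposited table, where 1.16% of all tested genes were called in either direction. Lists this short hold few calls at that share, so nothing is read from their absence. Of 6 spermatogonial markers 5 were higher, with Kit and Uchl1 called higher, a median of 0.18 and sums of 82.1 and 98.0 FPKM. The part of these marker differences in the values of Insl3, Insl6 and Rxfp2 was not tested.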

How the data were processed

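Whole testis RNA was measured in 6 libraries, 3 per group, grouped by their titles. Tools listed in the submitters' processing notes, without role or setting, are STAR 2.6.1d, Trimmomatic 0.38, bcl2fastq 2.20, Cuffdiff and Cufflinks, with the build mm10. The file is the authors' deposited Cuffdiff gene table: per the file headers it holds FPKM per group, a log2 fold change, a test statistic (a signed score), and p-values and q-values. The labels do not say whether libraries came from separate animals, so p-values speak for these libraries only.

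Members were rows whose gene name matched. The members and lists were chosen with earlier results of these data known. Lists share some genes, so their results are not separate. A call was status OK and the deposited q under 0.05; adjusting the deposited p by Benjamini-Hochberg over every tested gene gave that q within 5.2e-07. Named were all members, 2 further receptors, neighbours (3 on each side, and overlapping genes), the 5 genes nearest in change, and every list's calls and each pathway list's most abundant tested gene; any further gene was picked with its values in view. List medians used log2(FPKM + 1), which understates low genes, over genes with at least 0.1 FPKM in a group. Fragment weights came from single-exon genes, tested on simulated data first; the length deducted was 264 bp in control and 268 bp in Ptbp1_cKO, and 1 FPKM at 1 kb stood for 199 to 261 and 196 to 216 fragments. Positions are from GENCODE M21 (mm10), which held 98.6% of the deposited identifiers. Python 3.11.15, pandas 2.3.3, scipy 1.17.1 and matplotlib 3.10.9 were used.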

Additional observations from a re-analysis of the deposited data

How the results depend on the processing

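The call of Insl3 depended on the source of p: adjusted p was 0.9999 with the normal p from the statistic, against 0.00848 as deposited and 0.00647 when adjusted over genes with at least 1 FPKM. With the normal p, 0 members and 19 of the 22020 tested genes with a statistic passed. As deposited, 1 member and 256 of the 22048 tested genes passed. At an unadjusted p under 0.05, 2 members passed, beside 8.98% of all tested genes. At q under 0.01 and under 0.10 the count of members stayed at 1. The share of all tested genes at those cutoffs was not computed, so nothing is read from the unchanged count. The log2 change of Insl3 lay between 0.42 and 0.53 over 2 other scalings, 2 pseudocounts and division by the steroid list. Of 63 alternative list medians over 21 lists, 55 moved by less than 0.1, 7 by more and 1 changed sign, that of all tested genes (-0.004 at a minimum of 1 FPKM). Of the 8 members' differences, those of Insl5 and Rln3 moved by more than 0.1 with a pseudocount of 0.1. No paired analysis was possible because the table holds 1 value per group, and for the same reason no library could be left out.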
